A study of Homo sapiens with 9 samples.

Results

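MDA-MB-231 is an established cell line from a triple-negative breast cancer, a tumour class that lacks the estrogen receptor, the progesterone receptor and amplified HER2. The 3 libraries described here, of 9 in the series, came from MDA-MB-231 cells that received siNC, a nontargeting control siRNA, by reverse transfection, and they were chosen by their titles alone. RNA was taken 96 h after transfection from cells kept in DMEM with serum, and single reads were sequenced. The study asked how zinc and the zinc transporter ZIP7 bear on ferroptosis. These control libraries, taken at the same 96 h as the knockdown libraries, hold the state of cells in which no such gene was targeted. No untransfected cells were among the groups, so the state of the line and any effect of the control siRNA or its carrier cannot be told apart. The labels do not say whether the 3 libraries came from separate cultures, so the spread between them may be technical.

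The number of reads counted on genes was 24153785 in the smallest library and 28786303 in the largest. Levels are given as TPM (length-scaled transcript abundance), the count per base of annotated exon scaled to the same total over all genes in each library, as mean ± SD of the 3 libraries (n = 3) unless stated. TPM allows genes of different length to be compared within a library. A gene is called expressed here at 1 TPM or more in every library, and silent at 3 counts or fewer in every library, a floor that covers counting error only. The chi-squared per gene between pairs of libraries was 3.79 to 4.45, against 1 for counting error alone, so no library was a copy of another. The coefficient of variation between libraries, after counting error was removed, was 4.27% from edgeR's common dispersion over 14567 genes. As a check for other cell types, 10 of 35 markers of immune, endothelial, fibroblast, fat, blood, liver and nerve cells were expressed. Of all protein-coding genes, 58.6% were expressed. These 35 summed to 26.1 to 29.7 TPM, and the highest, CD14, reached 3.81 ± 1.18 TPM. Next came CSF1R at 3.19 TPM, PDGFRB at 2.72 TPM, APOA1 at 2.60 TPM, LYZ at 2.37 TPM and KDR at 2.28 TPM. MS4A1, HBB, PPBP, CLDN5, ADIPOQ, LEP and SNAP25 had no read in any library.

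Of 19892 protein-coding genes, 11648 were expressed, which is 58.6%. A further 6049 genes, 30.4%, were silent, and 4023 of them had no read in any library. The remaining 2195 genes lay between these classes. Counts of expressed or silent members given below are to be read beside the shares of 58.6% and 30.4%. Most expressed genes lay at moderate levels, with 6835 genes between 10 and 100 TPM, 1940 between 100 and 1000 TPM, and 76 above that. These 76 genes held 11.5% of all counts. The median expressed gene was at 29.1 TPM. The 10 genes with the most counts took 4.41% ± 0.071 of the reads and the first 100 took 15.9% ± 0.084.

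The mitochondrial genome encodes subunits of the respiratory chain and the RNAs of its own ribosome, and 12 of its genes were among the 20 highest by TPM. MT-CO3, a subunit of cytochrome c oxidase, led at 11415 ± 1116 TPM, with MT-CO2 at 11324 ± 884 TPM and MT-ND4 at 11305 ± 1046 TPM. The library ranges of these genes overlapped, so their order is not set. The first nuclear gene was TMSB10, which encodes a small actin-binding peptide, at 8939 ± 339 TPM. S100A6, a calcium-binding protein, followed at 7423 ± 324 TPM. The other nuclear genes of this group were IGFBP4, a secreted binder of insulin-like growth factors (5509 ± 71.1 TPM), the actins ACTB (5395 ± 145 TPM) and ACTG1 (5226 ± 128 TPM), the ferritin light chain FTL, the intermediate filament vimentin (VIM) and the glycolytic enzyme GAPDH (3848 ± 93.4 TPM). By counts without length scaling the order was different. There FLNA, a long actin cross-linker, led with 151512 to 173090 reads, and VIM, PLEC, ACTB and THBS1 came next.

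**Figure D1:**
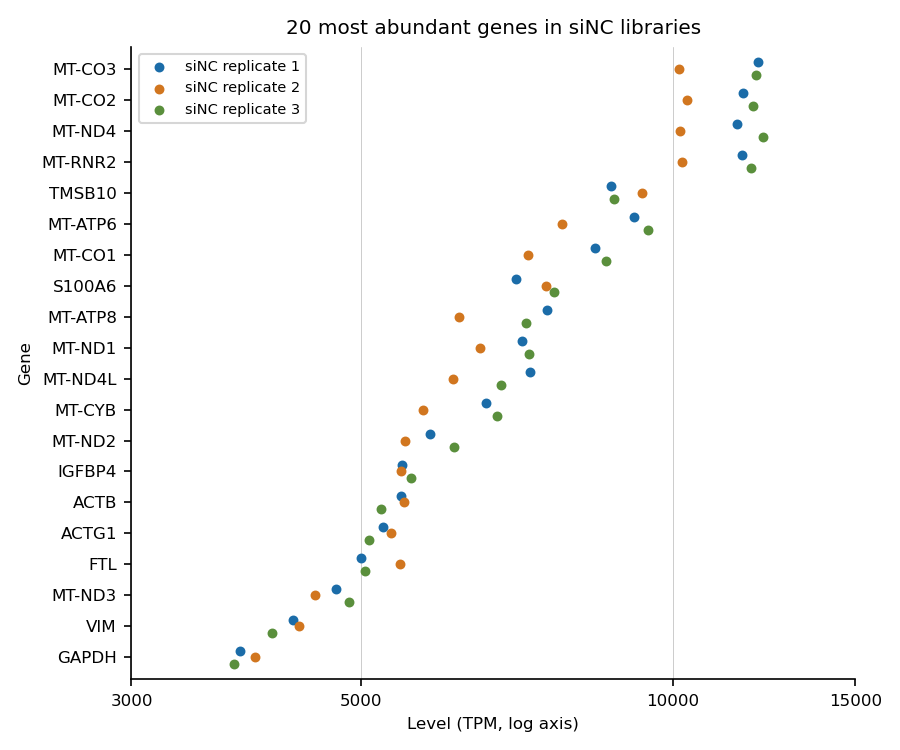
Level in TPM on a log axis of the 20 most abundant genes in each of the 3 siNC libraries, with 1 point per library. Replicate 2 is the lowest library for every mitochondrial gene shown, and the highest for TMSB10, ACTB, ACTG1, FTL, VIM and GAPDH.

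The hormone receptors that define luminal breast cancer were silent, and EGFR was the most abundant receptor of the list. ESR1, the estrogen receptor, had 3, 2 and 2 reads in replicates 1, 2 and 3, and PGR, the progesterone receptor, had 0 in each. The ESR1 level of 0.025 ± 0.0055 TPM lies at the floor. EGFR stood at 215, 217 and 206 TPM in replicates 1, 2 and 3. ERBB2, which encodes HER2, stood at 29.1, 27.4 and 28.9 TPM. EGFR was therefore 7.46 ± 0.41 times as abundant as ERBB2 per length within a library, and the ranges did not overlap. ERBB3 was near the threshold at 1.04 ± 0.037 TPM, and ERBB4 was at 0.057 ± 0.019 TPM.

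Transcription factors of the luminal lineage were a mixture. XBP1, which also serves the response to unfolded proteins, was at 219 ± 6.0 TPM, TFAP2C at 40.5 ± 0.70 TPM, SPDEF at 25.1 ± 1.9 TPM and GATA3 at 18.2 ± 1.2 TPM. FOXA1, the pioneer factor of estrogen receptor binding, was only at 2.96 ± 0.25 TPM. ELF5, the factor of the milk-secreting lineage, and the secreted proteins PIP and SCGB2A2 had no read. AGR2 at 8.42 ± 1.8 TPM, MUC1 at 3.82 ± 0.83 TPM and TFF1 at 3.05 ± 0.78 TPM were expressed. TFF3, AZGP1 and MUC16 were not. In all, 9 of 17 members were expressed, 52.9% against 58.6% of all protein-coding genes, and 5 were silent, while all 4 milk proteins were silent with no read.

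Of the keratins, the intermediate filaments of epithelia, 4 of 5 simple and 5 of 10 basal and stratified members were expressed. These are 80% and 50%, where 58.6% of all protein-coding genes were expressed. KRT18 was at 304 ± 11.5 TPM, KRT7 at 288 ± 16.2 TPM, KRT19 at 135 ± 3.4 TPM and KRT8 at 117 ± 1.1 TPM, and only KRT20 of this list had no read. KRT5, KRT6A and KRT6B, typical of basal cells, had no read in any library. KRT14 (0.97 ± 0.38 TPM), KRT16 (0.80 ± 0.24 TPM), KRT17 (1.76 ± 0.32 TPM) and KRT15 (2.23 ± 0.16 TPM) lay near the threshold. KRT80 reached 210 ± 8.4 TPM and the hair keratin KRT81 81.7 ± 4.8 TPM. For KRT81, 43.4% of its 50-base words also occur in other genes, so its level depends on how reads were placed. For KRT6A and KRT6B the shares were 36.3% and 47.8%, so their counts of 0 carry the same limit. The basal regulator TP63 was at 0.27 ± 0.099 TPM and SOX10 had no read. SOX9, a factor of progenitor cells, was at 212 ± 8.8 TPM and FOXC1, a factor often found in basal-like tumours, at 22.8 ± 1.6 TPM. Among smooth muscle genes of myoepithelial cells, TAGLN was at 10.7 ± 0.88 TPM, MYLK at 10.1 ± 0.40 TPM, ACTA2 at 1.48 ± 0.12 TPM and CNN1 at 0.10 ± 0.044 TPM.

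An epithelial cell that becomes mesenchymal loses E-cadherin junctions, gains vimentin and matrix-degrading enzymes, and moves as a single cell. Zinc finger factors of the ZEB and SNAI families repress the E-cadherin gene, CDH1, and the OVOL, GRHL and ESRP genes maintain the epithelial state. CDH1 was counted by 10, 10 and 17 reads in replicates 1, 2 and 3, a level of 0.30 ± 0.080 TPM. GRHL2 was at 0.035 ± 0.030 TPM, ESRP1, a splicing factor, at 0.37 ± 0.11 TPM, and both OVOL1 and OVOL2 had no read. ESRP2, its relative, was at 1.20 ± 0.091 TPM. Of the 24 epithelial genes 12 were expressed, 50%, against 58.6% of all protein-coding genes. The desmosomal plaque proteins DSP (50.2 ± 1.4 TPM), JUP (40.8 ± 4.4 TPM) and PKP3 (25.9 ± 0.62 TPM) and the claudins CLDN7 (41.0 ± 3.3 TPM) and CLDN4 (20.5 ± 0.45 TPM) were among them. EPCAM, an epithelial adhesion molecule, was at 10.3 ± 0.47 TPM. The whole list summed to 210 ± 11.1 TPM.

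Of 10 mesenchymal transcription factors, 5 were expressed, 50% against 58.6% of all protein-coding genes. ZEB1 was at 52.6, 51.4 and 55.6 TPM in the 3 libraries, and SNAI2 at 49.6, 53.7 and 50.6 TPM, with overlapping ranges. Their relatives were lower: ZEB1 was 17.0 ± 0.29 times as abundant as ZEB2, and SNAI2 9.18 ± 2.1 times as abundant as SNAI1. TWIST1 had no read in any library, and TWIST2, PRRX1 and FOXC2 were below 0.1 TPM.

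The structural and surface genes of the mesenchymal state were nearly all expressed, 25 of 27, and summed to 21623 ± 157 TPM. VIM stood at 4293, 4353 and 4104 TPM and was 13.97 ± 0.19 times as abundant as KRT18. The matricellular proteins CCN1 (2758 ± 61.5 TPM) and CCN2 (2535 ± 67.0 TPM) and the galectin LGALS1 (2147 ± 66.3 TPM) came next. The receptor tyrosine kinase AXL reached 1470 ± 72.0 TPM, 6.92 ± 0.21 times the level of EGFR. Genes of pericellular proteolysis were high, with the urokinase PLAU at 1401 ± 28.7 TPM, its receptor PLAUR at 121 ± 5.6 TPM, and the membrane metalloprotease MMP14 at 1224 ± 24.2 TPM. MMP2, which MMP14 activates, was at 2.38 ± 0.071 TPM. The exceptions were CDH2, N-cadherin, at 0.62 ± 0.12 TPM and SPARC at 0.38 ± 0.14 TPM. CDH1, CDH2 and the placental cadherin CDH3 were thus all below 1 TPM, with CDH3 at 0.23 ± 0.080 TPM. Among the collagens, 8 of 10 were expressed, 80% against 58.6% of all protein-coding genes. COL5A1 (157 ± 8.1 TPM) was 7.14 ± 0.13 times as abundant as COL1A1 (21.9 ± 1.2 TPM), and the fibroblast collagens COL1A2 and COL3A1 were below 0.1 TPM. The surface pair used to mark breast stem-like cells was unequal, with CD44 at 323 ± 14.4 TPM and CD24 at 1.06 ± 0.17 TPM. In the list of breast stem cell markers, which holds CD24 but not CD44, 2 of 5 genes were expressed. This is 40% against 58.6% of all protein-coding genes. ITGA6 was at 271 TPM and ALDH1A3 at 4.31 TPM, whereas PROM1 was at 0.032 TPM and ALDH1A1 at 0 TPM.

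**Figure D2:**
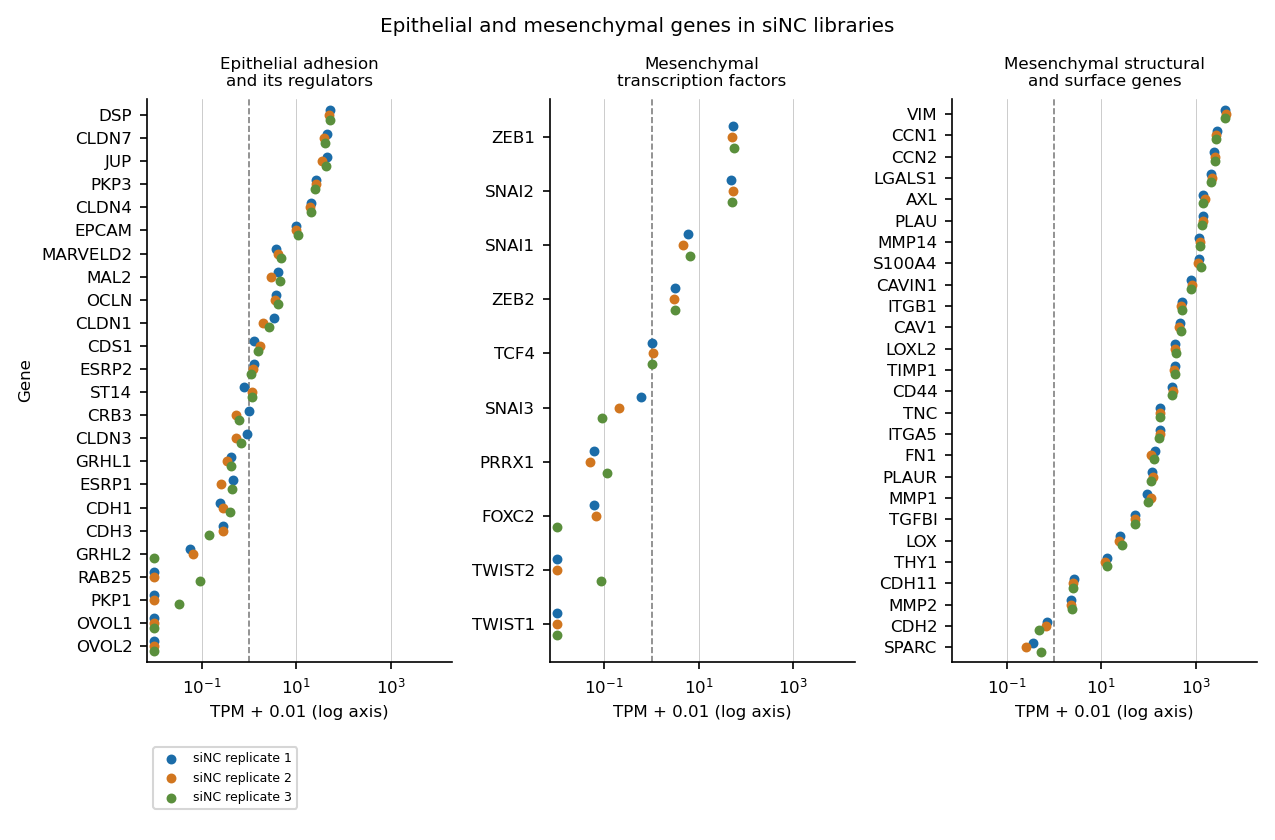
Level of each gene in each of the 3 siNC libraries as TPM + 0.01 on a log axis, in 3 lists, with the dashed line at the 1 TPM threshold. CDH1, GRHL2, ESRP1, OVOL1 and OVOL2 lie left of the line, ZEB1 and SNAI2 lead the transcription factors, and the structural and surface genes shown, apart from CDH2 and SPARC, lie right of it.

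Zinc enters the cytosol through the ZIP proteins, encoded by SLC39 genes, and leaves it for the outside or for vesicles through the ZnT proteins, encoded by SLC30 genes. Metallothioneins bind zinc in the cytosol, and the zinc sensor MTF1 switches on their genes by binding metal response elements. ZIP7, the product of SLC39A7, releases zinc from the endoplasmic reticulum. Of 14 SLC39 genes 11 were expressed, 78.6%, and of 10 SLC30 genes 6 were, 60%. The share of all protein-coding genes was 58.6%. The SLC39 genes summed to 1280 ± 19.3 TPM and the SLC30 genes to 196 ± 12.2 TPM.

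SLC39A7 (ENSG00000112473, chromosome 6 of GRCh38 from 33200445 to 33204439, plus strand) had the highest level of either family, at 448, 476 and 449 TPM in replicates 1, 2 and 3. It held 35.8% of the SLC39 sum. SLC39A1, the plasma membrane importer ZIP1, followed at 293, 295 and 279 TPM, with no overlap of the ranges. This order depends on the length used. Other genes on either strand overlap 69.1% of the exonic length of SLC39A1. When only the bases that no other gene shares were counted as length, SLC39A1 was at 845 TPM and SLC39A7 at 453 TPM. SLC39A14, which carries zinc and iron, was at 121 ± 1.25 TPM and SLC39A13, a transporter of secretory vesicles, at 115 ± 4.7 TPM, and their ranges overlapped. SLC39A6 was at 99.8 ± 3.5 TPM, SLC39A9 at 73.8 ± 2.3 TPM and SLC39A8 at 47.0 ± 1.8 TPM. SLC39A4, the importer of the gut, was at 16.1 ± 0.23 TPM. SLC39A2 had no read, and SLC39A5 and SLC39A12 were below 1 TPM.

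The 5 highest exporters lay close together. SLC30A1, the exporter of the plasma membrane, was at 39.5, 43.2 and 46.7 TPM, SLC30A5 at 40.5 ± 2.4 TPM, SLC30A9 at 37.7 ± 2.5 TPM, SLC30A7 at 35.3 ± 3.2 TPM and SLC30A6 at 34.6 ± 1.5 TPM. The range of each overlapped that of the next, so the order within each neighbouring pair is not set. SLC30A5, SLC30A6 and SLC30A7 load the early secretory pathway, into which ZIP7 opens in the other direction, and SLC39A7 was 13.0 ± 1.2 times as abundant as SLC30A7. SLC30A4 was lower at 4.07 ± 0.069 TPM. SLC30A2, of secreting mammary cells, and SLC30A8, of the insulin granule, had no read.

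Metallothionein RNA came mostly from 1 gene, which made up 82.3% of the summed level of this list. MT2A was at 1816, 1741 and 1697 TPM in replicates 1, 2 and 3. MT1E followed at 289, 298 and 267 TPM, MT1X at 50.1, 52.4 and 49.5 TPM and MT1A at 11.7, 18.0 and 10.3 TPM. These ranges were all apart, and MT2A was 6.16 ± 0.27 times as abundant as MT1E. The MT1A level rests on only 29 to 42 reads. MT1F, MT1H, MT1B and MT4 had no read in any library, and MT1G, MT1M and MT3 had at most 2. Of the 50-base words of MT1F 0%, and of those of MT1H 7.69%, occur in another gene. MTF1 itself was at 28.2 ± 1.1 TPM.

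The promoters of an expressed and a silent metallothionein gene are shown because both carry the letters of the metal response element, TGCACNC or TGCGCNC, which are in capitals on either strand. They are given 5′ to 3′ from RefSeq, build GRCh38.p14, and stop before the first annotated exon base of each gene. MT1X is taken from chr16:56682220-56682423, plus strand, and MT1H from chr16:56669564-56669813, plus strand.
MT1X: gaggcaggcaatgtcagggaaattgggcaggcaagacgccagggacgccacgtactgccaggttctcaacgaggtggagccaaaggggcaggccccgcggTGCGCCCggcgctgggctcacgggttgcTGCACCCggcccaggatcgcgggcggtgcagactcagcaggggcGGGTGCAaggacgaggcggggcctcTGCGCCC
MT1H: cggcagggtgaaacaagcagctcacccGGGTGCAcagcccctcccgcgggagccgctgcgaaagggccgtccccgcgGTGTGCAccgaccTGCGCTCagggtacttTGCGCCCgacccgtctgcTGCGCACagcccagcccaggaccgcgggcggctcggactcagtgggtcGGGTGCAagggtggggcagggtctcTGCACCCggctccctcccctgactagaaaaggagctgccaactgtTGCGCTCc
In the 250 bases before the RefSeq start, MT2A held 7 matches, MT1X 4 and the unread MT1H 8. At least 1 match was found in 24.8% of 35116 promoter windows of this length, at least 4 in 0.370% and at least 8 in 0.0171%. A match is a run of letters and not a measured binding site. Of the 416 genes listed for this description, 281 had a window by symbol.

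**Figure D3:**
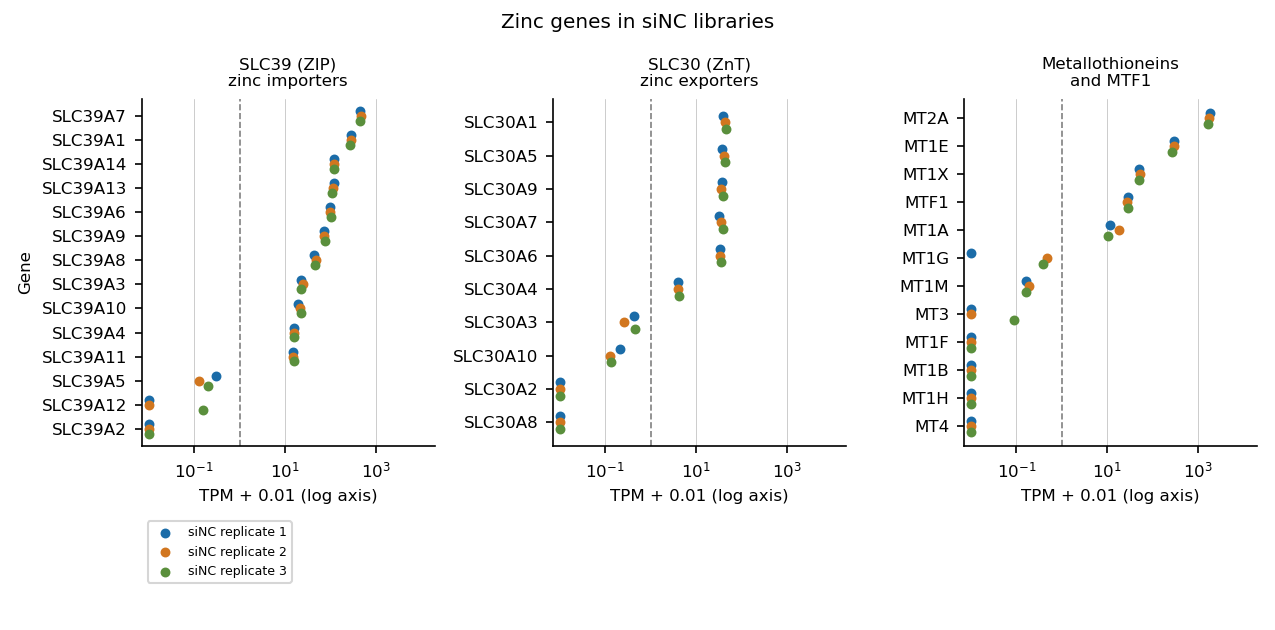
Level of each SLC39, SLC30 and metallothionein gene in each of the 3 siNC libraries as TPM + 0.01 on a log axis, with the dashed line at the 1 TPM threshold. SLC39A7 lies at 448 to 476 TPM and SLC39A1 at 279 to 295 TPM on the full exonic length, an order that turns on unshared length (453 and 845 TPM), 5 exporters lie together between 30 and 50 TPM, and 7 of 12 genes in the metallothionein panel lie left of the line.

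Cells take up iron bound to transferrin through the transferrin receptor, store it in ferritin made of heavy and light chains, and release it through ferroportin. Free ferrous iron drives the lipid peroxidation of ferroptosis. The receptor gene TFRC was at 253, 276 and 271 TPM in the 3 libraries. The exporter gene SLC40A1, ferroportin, was at 1.37, 1.21 and 2.02 TPM from 31 to 62 reads. TFRC was 182 ± 46.7 times as abundant as SLC40A1. Of the other genes of export and its hormonal control, the hormone HAMP and the oxidases CP and HEPH were below 0.1 TPM and BMP6 was at 2.17 ± 0.46 TPM. In this list 2 of 6 genes were expressed, and 0 with the threshold at 2 TPM. Of the genes of uptake and reduction 10 of 14 were expressed, 71.4%, where 58.6% of all protein-coding genes were. The reductase STEAP3 was at 112 ± 4.4 TPM and CYBRD1 at 46.3 ± 2.0 TPM, whereas the endosomal exporter SLC11A2 was at 16.9 ± 0.94 TPM.

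Of 6 storage and chaperone genes 5 were expressed, and FTMT, mitochondrial ferritin, had no read. FTL, the ferritin light chain, was at 4993, 5452 and 5045 TPM and FTH1, the heavy chain with the ferroxidase, at 819, 895 and 793 TPM. FTL was thus 6.18 ± 0.16 times FTH1 per length. That ratio is uncertain, because 41.7% of the 50-base words of FTH1 occur in other genes and 62.4% of its exonic bases lie under other genes. On the length that no other gene shares, FTH1 was at 2012 TPM and FTL at 4670 TPM. The iron chaperone PCBP1 was at 1187 ± 36.3 TPM, and 2246 TPM on the unshared length. NCOA4, which delivers ferritin for degradation, was at 249 ± 8.5 TPM. All 8 genes of iron sensing and iron-sulphur clusters were expressed, among them the iron regulatory proteins ACO1 (103 ± 2.8 TPM) and IREB2 (41.2 ± 1.4 TPM) and the sensor FBXL5 (60.4 ± 0.79 TPM).

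Ferroptosis is restrained by glutathione, which the peroxidase GPX4 uses to reduce lipid peroxides, and glutathione synthesis needs cystine brought in by the pair SLC7A11 and SLC3A2. SLC7A11, the transporting chain, was at 124, 141 and 154 TPM in replicates 1, 2 and 3, or 140 ± 15 TPM, a wider spread than the median coefficient of variation of 3.72% over the well-counted genes. SLC3A2, its partner that also serves other amino acid transporters, was at 440 ± 22 TPM, 3.17 ± 0.36 times as abundant. The enzymes of synthesis were expressed, with GCLM at 65.6 ± 3.9 TPM, GCLC at 18.0 ± 0.38 TPM and GSS at 106 ± 4.4 TPM. CHAC1, which degrades glutathione, was at 113 ± 3.9 TPM. CTH, the last enzyme that makes cysteine from methionine, was at 64.6 ± 0.64 TPM. CBS, the enzyme before it, had no read. However, 92.4% of the 50-base words of CBS occur in another gene, such as its annotated copy CBSL, and reads with several alignments were absent from the counts, so a count of 0 says nothing about CBS.

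GPX4 was at 296, 298 and 288 TPM. AIFM2, which encodes FSP1, a reductase of coenzyme Q, was at 56.1 ± 1.6 TPM, so that GPX4 was 5.24 ± 0.061 times as abundant. DHODH, the mitochondrial enzyme with a related role, was at 11.4 ± 0.64 TPM and GCH1, which starts tetrahydrobiopterin synthesis, at 17.5 ± 1.7 TPM. The peroxiredoxin PRDX1 was the highest of this list at 1319 ± 37.9 TPM, followed by PRDX6 (537 ± 11.4 TPM), TXNRD1 (509 ± 4.5 TPM) and NQO1 (411 ± 14.03 TPM). All but 1 of the 14 defence genes were expressed, the exception being the selenium carrier SELENOP at 0.25 ± 0.039 TPM. All 8 genes of the NRF2 pathway were expressed, with NFE2L2, which encodes NRF2, at 98.6 ± 3.5 TPM and its inhibitor KEAP1 at 158 ± 5.1 TPM. HMOX1, which frees iron from haem, was the lowest of these at 26.3 ± 1.0 TPM.

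Of 18 genes of polyunsaturated lipids and lipid oxidation 12 were expressed, 66.7% against 58.6% of all protein-coding genes. None of the 6 lipoxygenases was among them. ACSL4, which activates polyunsaturated fatty acids, was at 121 ± 5.5 TPM and was 2.27 times as abundant as ACSL3, which prefers monounsaturated ones. LPCAT3 was at 24.9 ± 1.6 TPM and POR, an oxidoreductase that can feed peroxidation, at 25.7 ± 0.29 TPM. Other genes overlap 65.6% of the exonic length of LPCAT3, and on the length that no other gene shares it was at 65.4 TPM. SCD, which makes monounsaturated fatty acids, was at 300.0 ± 17.1 TPM. Of the 6 lipoxygenase genes, ALOXE3 was the highest at 0.86 ± 0.088 TPM from 17 to 25 reads, and ALOX15 had no read. ALOX5, ALOX12 and ALOX15B had at most 1 read in a library and ALOX12B at most 4. PTGS2, a cyclooxygenase often used as a marker of ferroptosis, was at 42.7 ± 3.1 TPM.

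Proteins that fold in the endoplasmic reticulum are bound there by chaperones, joined by disulfide isomerases, and sent back for degradation if misfolded. IRE1 (ERN1), PERK (EIF2AK3) and ATF6 sense unfolded proteins. All 11 chaperones were expressed and summed to 5484 ± 78.2 TPM. CALR, the calcium-binding lectin calreticulin, made up 44.5% of that sum, at 2393, 2508 and 2419 TPM. HSP90B1 was at 850 ± 23 TPM, CANX at 834 ± 41.1 TPM and HSPA5, the main regulator of the sensors, at 782, 765 and 747 TPM. CALR was 3.19 ± 0.12 times as abundant as HSPA5. Of the isomerases, 10 of 11 were expressed, led by P4HB at 811 ± 8.0 TPM, and the pancreatic form PDIA2 had no read.

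Of the sensors, ATF6 was at 55.0 ± 1.0 TPM, EIF2AK3 at 14.5 ± 0.48 TPM and ERN1 at 13.0 ± 0.56 TPM, while ERN2, the form of gut epithelium, had at most 1 read. ATF6B, a relative of ATF6, was at 122 ± 1.4 TPM. Of the effectors of the PERK arm, ATF4 was at 464 ± 8.9 TPM, PPP1R15A at 344 ± 12.6 TPM, TRIB3 at 151 ± 2.6 TPM, DDIT3, which encodes CHOP, at 80.05 ± 0.93 TPM and ATF3 at 14.7 ± 0.69 TPM. Other genes overlap 39.6% of the exonic length of DDIT3. HERPUD1, a membrane protein of the degradation complex, was at 66.7, 64.8 and 65.7 TPM. It lay near the median of its list of 14 degradation genes, 61.7 TPM, of which 13 were expressed. Among calcium genes, the pump ATP2A2 was at 243 ± 4.6 TPM and the receptor ITPR3 at 150 ± 7.6 TPM. ITPR3 was 27.3 ± 0.41 times as abundant as ITPR2.

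The promoters of HSPA5 and CALR are shown because both carry the endoplasmic reticulum stress element, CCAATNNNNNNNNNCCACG, in capitals on either strand. They are given 5′ to 3′ from RefSeq, build GRCh38.p14. HSPA5 is taken from chr9:125241344-125241593, minus strand, and CALR from chr19:12938359-12938577, plus strand, before the first annotated exon base.
HSPA5: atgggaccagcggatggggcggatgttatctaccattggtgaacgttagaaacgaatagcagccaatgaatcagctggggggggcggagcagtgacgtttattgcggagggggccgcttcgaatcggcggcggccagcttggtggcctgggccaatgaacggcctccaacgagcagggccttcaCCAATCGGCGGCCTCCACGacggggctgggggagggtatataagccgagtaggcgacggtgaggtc
CALR: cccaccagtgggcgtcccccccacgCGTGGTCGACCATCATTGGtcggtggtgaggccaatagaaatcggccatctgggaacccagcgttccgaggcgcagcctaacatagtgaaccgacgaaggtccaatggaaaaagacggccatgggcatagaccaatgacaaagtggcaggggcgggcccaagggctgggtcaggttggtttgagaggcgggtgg
The element lies 66 bases before the RefSeq start in HSPA5. In CALR it lies on the opposite strand, 225 bases before the start. HSP90B1 held 2 matches in its 250 bases. Only 26 of 35116 windows, 0.0740%, held a match, and CANX and CRELD2 also held a match in at least 1 window, whereas those of HYOU1, DNAJB9, DNAJB11, DNAJC3, SDF2L1 and MANF held none.

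Silent genes included whole families, where 30.4% of all protein-coding genes were silent. All 13 interferon alpha genes, which lie in 1 block of chromosome 9, all 45 defensins, of which 15 share at least 80% of their 50-base words with another gene, and all 18 late cornified envelope genes were silent, as were 378 of 381 olfactory receptors and 93 of 94 keratin-associated proteins. The highest olfactory receptor, OR2B6, was at 0.48 ± 0.15 TPM. The exception among the hair proteins was KRTAP2-3, at 88.0 ± 3.2 TPM from a mean of 511 reads. Protocadherins were divided, with 21 of 66 expressed, 17 silent and PCDHGB2 the highest at 16.4 ± 0.35 TPM. A count of 0 is not always absence of a transcript. For 916 of the 6049 silent genes, 15.1%, at least 80% of the 50-base words are shared with another gene or at least 80% of the exonic length is overlapped. Among expressed genes that share was 0.901%. EEF1G, which encodes a translation factor that all cells use, had no read, and 99.9% of its exonic length is overlapped.

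HOX genes, which record position along the body axis, gave a selective pattern. Of 39 genes, 9 were expressed and 24 silent, where 58.6% of all protein-coding genes were expressed and 30.4% silent. The HOXA cluster held none expressed of 11, and 10 of these were silent. HOXB9 was far above the rest, at 49.5, 57.2 and 47.8 TPM, and was 19.2 ± 3.8 times as abundant as HOXB3. HOXD1 was at 9.29 ± 0.39 TPM, with 58.1% of its exonic length under other genes, and no HOXC gene exceeded HOXC8 at 1.89 ± 0.36 TPM.

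A block of neighbouring silent genes lay on the short arm of chromosome 9, from 20999515 to 24545946 of GRCh38, and held 25 consecutive protein-coding genes in 3.55 megabases. By span it was the second of 13 silent runs of at least 20 genes on the autosomes and chromosome X. By number of genes it ranked only 10 of 13, level with a run on chromosome 11. Loss of CDKN2A in this line is known from earlier work, but DNA was not examined here and the cause of this block was not tested. The block held 16 interferon genes and 9 others: HACD4, KLHL9, MTAP, AL359922.1, CDKN2A, CDKN2B, DMRTA1, ELAVL2 and IZUMO3. CDKN2A and CDKN2B encode inhibitors of the cyclin D kinases, and MTAP encodes an enzyme of methionine salvage that most cells use. HACD4 had 1 read in replicate 3, and the other 24 genes had none in any library. Of the 50-base words, 2.00% of those of CDKN2A, 6.31% of those of MTAP and 0% of those of KLHL9 occur elsewhere. Only 16 of the 25 genes were under 10% for both shared words and overlapped exonic length. For IFNA1 60.6% of the words are shared, and for AL359922.1 94.4%, with 100% of its exonic length overlapped. Counts of 0 for such genes are limited by how reads were placed. The flanking genes were counted. Before the block FOCAD had 46 to 66 reads and MLLT3 257 to 296 reads. After it TUSC1 had 311 to 387 reads and CAAP1 864 to 1021 reads. FOCAD, at 0.81 ± 0.13 TPM, was below the threshold of 1 TPM. SLC24A2, beyond MLLT3, was itself silent with at most 2 reads. Of 68 annotated genes of any type in the block, 64 had no read, and the processed pseudogene KHSRPP1 had 33 of the 39 reads. RNA counts cannot tell a missing gene from a silent one.

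**Figure D4:**
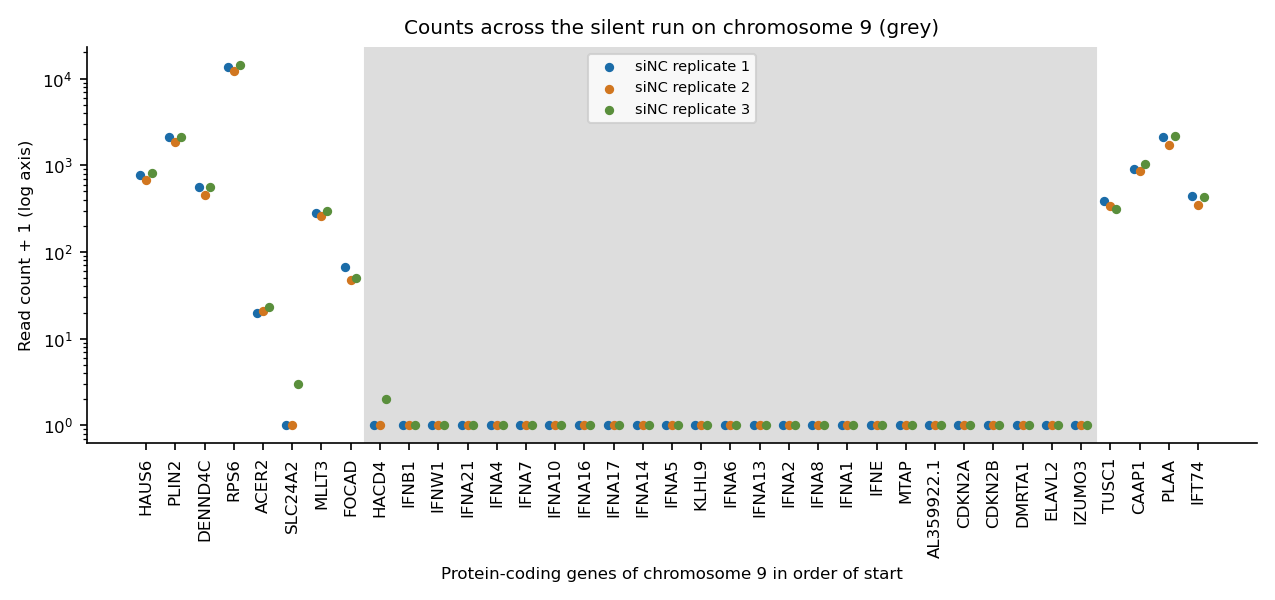
Read count + 1 on a log axis for 37 consecutive protein-coding genes of chromosome 9 in order of start, with 1 point per siNC library. The 25 genes of the grey block lie at 1, which is a count of 0, apart from 1 read of HACD4, while MLLT3, FOCAD, TUSC1 and CAAP1 at the edges were counted in every library.

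All 13 listed oncogenes and tumour suppressors were expressed, where 58.6% of all protein-coding genes were. CDKN2A and CDKN2B, which had no read, were not in this list, whose members were chosen with earlier results known. CCND1, the cyclin that the kinases CDK4 and CDK6 bind, was at 1220, 1236 and 1231 TPM, MYC at 358 ± 19.0 TPM, CDK4 at 207 ± 5.6 TPM (329 TPM on unshared length) and CDK6 at 64.4 ± 2.3 TPM. RB1 was at 61.3 ± 2.8 TPM, BRAF at 5.66 ± 0.25 TPM, NF1 at 4.92 ± 0.28 TPM and the telomerase gene TERT at 6.08 ± 0.38 TPM. All 11 surface genes of immune recognition were also expressed. NT5E, which encodes CD73, was at 401 ± 10.6 TPM, CD274, which encodes PD-L1, at 32.2 ± 0.52 TPM and CD47 at 45.4 ± 2.4 TPM.

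**Figure D5:**
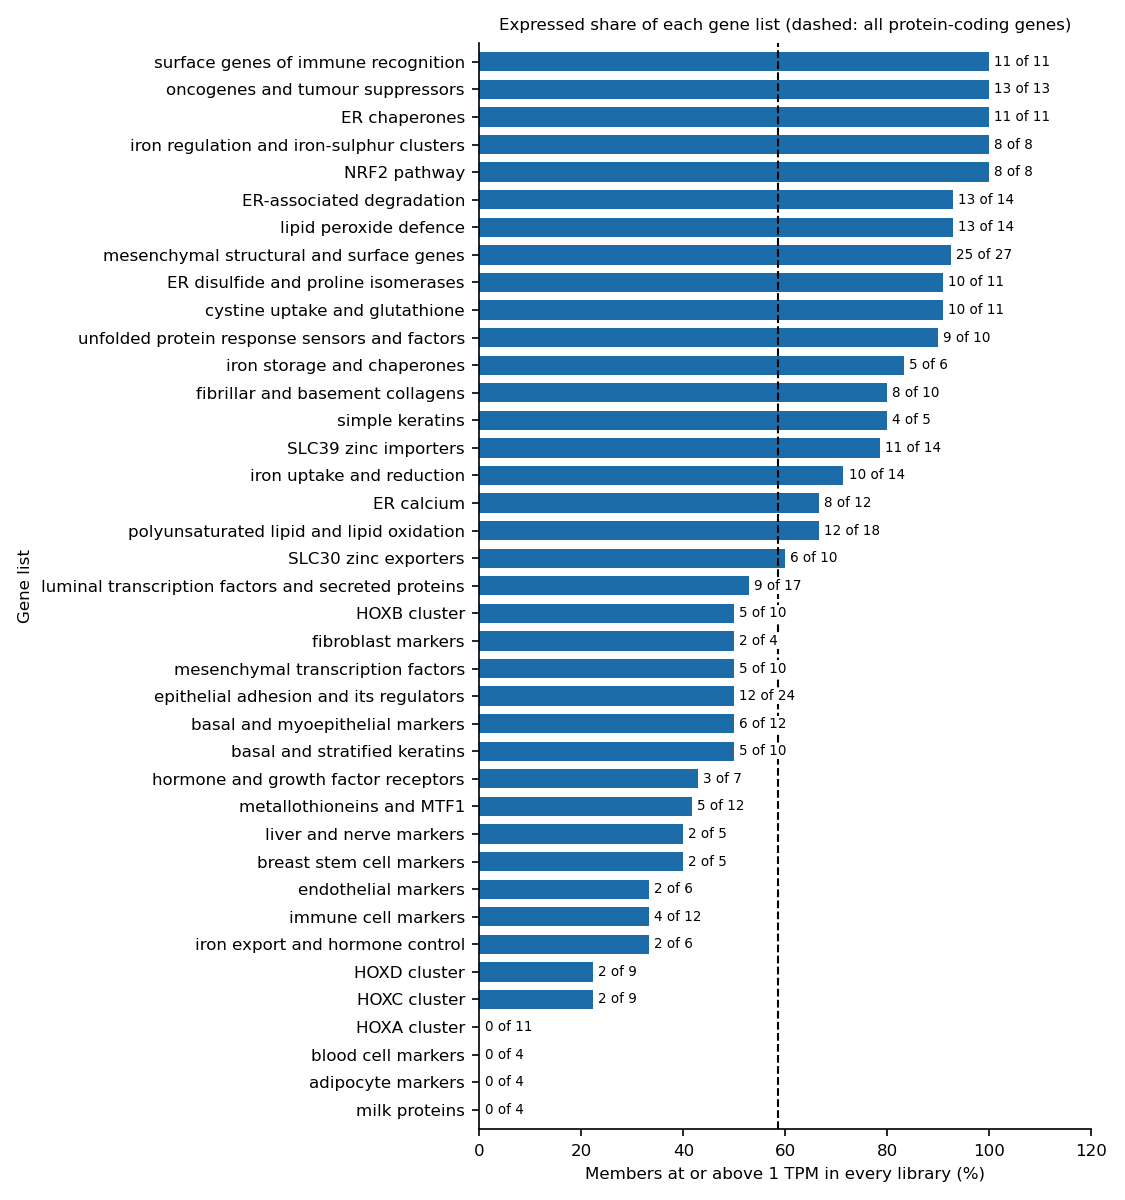
Percent of members of the gene lists at or above 1 TPM in every siNC library, with the number of members at each bar, and the share of all protein-coding genes, 58.6%, as a dashed line. The lists of the chromosome 9p21 neighbourhood and of X inactivation are not drawn. The lists of chaperones of the endoplasmic reticulum, iron regulation and NRF2 lie at 100%, calcium genes of the endoplasmic reticulum at 66.7%, and the HOXA cluster and the milk proteins at 0%.

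Mitochondrial genes took 2.26% to 2.65% of counts. Among 8063 protein-coding genes with a mean of at least 500 counts, the median ratio of the variance between libraries to counting variance was 2.56. This ratio grows with the count of a gene. The 10 genes with the largest ratio included 7 mitochondrial genes, led by MT-ND4, whose scaled count in the highest library was 1.20 times that in the lowest. Replicate 2 was the lowest for these 7 genes and the highest for AHNAK, PLEC and FLNA, large proteins of the cell cortex. AHNAK was 1.23 times as abundant in the highest library as in the lowest, and its coefficient of variation, 11.9%, was above that of the 7 mitochondrial genes. Over these 8063 genes the median coefficient of variation was 3.72% and the 95th percentile 9.27%.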

How the data were processed

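The values are whole-number counts of single reads on each Ensembl gene, deposited by the authors before any normalization. The submitters' processing notes name Trim Galore 0.4.1, FastQC 0.11.2, STAR, HTSeq 0.6.1 and DESeq2 1.16.1. The genome build, annotation and strand setting are not given in the sources used here. Only the 3 siNC libraries were used. The 5 summary lines of each file were left out. They held 7.43% to 8.28% of reads outside genes, 2.85% to 2.91% that fell on several genes, and 0 with several alignments. Of 58395 identifiers, 58275 were in GENCODE release 29 (GRCh38), which gave symbols, types and exonic lengths. The other 120 held at most 670 reads per library.

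TPM was computed from the counts and the union of annotated exons. Overlap with other genes was taken on either strand. If reads were counted by strand, levels on unshared length may be too high where the overlap is on the opposite strand. The spread was estimated with edgeR 4.0.16, TMM normalization and its low-count filter, a step tested on simulated data. To mark genes that reads cannot separate, 50-base words were taken every 25 bases of the longest transcript of each gene. They were looked up in the transcripts of all other genes. No test was made, since 1 group was described, and an exact sign-flip permutation over 3 libraries cannot give a two-sided p under 0.25. Named genes are members of the gene lists, the 20 highest genes, the 10 highest not protein-coding, the 10 with the largest ratio of variance to counting variance, and the highest member of each silent family. Other genes named as neighbours, by their counts, or as limits of counting were chosen after their values were seen. The members and lists were chosen with earlier results of these data known. A few members of the lists are not reported here by name but are included in list counts and sums. Other lengths, scalings, thresholds and left-out libraries were tried as alternatives.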

Additional observations from a re-analysis of the deposited data

How the results depend on the processing

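Left-out libraries changed little. Expressed protein-coding genes numbered 11697 to 11728, silent ones 6132 to 6224, and the share of reads on the first 10 genes was 4.37% to 4.44% and on the first 100 genes 15.9% to 16.0%. The median level of the 416 listed genes, 6.52 TPM, was 6.28 to 6.71 TPM, and the coefficient of variation was 4.10% to 4.40%. Across the other lengths, scalings and thresholds, 10259 to 12225 protein-coding genes were expressed. Asking for 0 counts left 4023 silent genes and allowing 10 gave 7039. By summed TPM the first 10 genes held 9.25% and the first 100 held 25.7%, and without mitochondrial genes 4.23% and 14.8% of reads. The median listed gene was at 7.09 TPM with the longest transcript, 7.19 TPM with unshared length and 7.54 TPM over nuclear protein-coding genes. Of 328 list counts recomputed, 318 stayed within 1.5 times. At 2 TPM the expressed members fell to 0 for iron export, 1 for endothelial, 1 for fibroblast and 1 for liver and nerve markers, 3 for HOXB and 0 for HOXC. Fibroblast markers gave 1 with the longest transcript. Adipocyte markers gave 1 with TPM over nuclear protein-coding genes, 1 at 0.5 TPM and 0 to 1 without 1 library, where leaving out replicate 3 gave the 1. Unshared length moved 8 of 262 expressed listed genes by over 1.5 times, SRXN1 most at 6.01 times, and the longest transcript moved 27, TCF4 most at 2.45 times. No paired analysis was possible because only 1 group is described and no groups are compared. Low genes are limited by depth: 3 counts were 0.104 to 0.124 CPM in these libraries (counts scaled to library size).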

Other observations

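Cancer-testis antigens, which are normally made in the germ line, were expressed from a few members. SSX1 was at 38.1 ± 2.8 TPM and the other 7 SSX genes were silent, while 4 of the 8 share at least 80% of their 50-base words with another gene. MAGEA6 was at 27.4 ± 2.5 TPM and 4 of 12 MAGEA genes were expressed, although 4 of the 12 share at least 80% of their 50-base words with another gene. All 13 GAGE genes were silent, and 11 of them share that much sequence. Of 6 PAGE genes 1 was expressed, PAGE2 at 2.21 ± 1.2 TPM. None of the 5 XAGE genes was expressed, and the highest, XAGE2, at 1.09 ± 0.50 TPM, was below 1 TPM in at least 1 library.

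Among genes not annotated as protein-coding, the mitochondrial ribosomal RNA MT-RNR2 was at 11246 ± 914 TPM and MT-RNR1 at 1735 ± 10.3 TPM. The nuclear pseudogenes of mitochondrial sequence MTATP6P1 (611 ± 52.3 TPM) and MTCO1P12 (412 ± 50.9 TPM) were also high, and 50% of the 50-base words of each are found elsewhere. LRRC75A-AS1, a host of small nucleolar RNAs, was at 414 ± 17.6 TPM, SNHG8 at 309 ± 11.4 TPM and SNORD104 at 311 ± 30.4 TPM. RN7SL2, of the signal recognition particle, was at 569 ± 162 TPM and MT-TL1 at 327 ± 32.8 TPM. GPX1, a selenium peroxidase, is listed as a polymorphic pseudogene by this annotation and was at 389 ± 17.8 TPM. Of 77 ribosomal protein genes the median was 272 TPM, from RPL7 at 4.54 ± 0.81 TPM, where 45.0% of the words are shared, to RPL8 at 2514 ± 107 TPM. U2AF1, a splicing factor that cells need, was at 13 to 27 reads, with 98.9% of its words shared.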
